A study of Rattus norvegicus with 28 samples.

Results

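The 9 genes followed here in the rat hippocampus were Isg15, Ifit2, Ifit3, Rsad2, Mx1, Mx2, Irf1, Irf7 and Usp18, a set of interferon-stimulated genes. They were taken as the non-control probes of a 1-colour Agilent rat gene expression array whose accession led, through NCBI's RefSeq gene table for the rat, to 1 of these 9 symbols. The array held 15637 genes named in this way, and the 9 genes had 11 of its 30367 probes. A probe was kept when some group had it above background on all of its arrays, which left 17322 probes, 10 of the 11 among them, and these 10 covered all 9 genes. Usp18 had a pair of kept probes. Irf1 had 1 kept probe, and its other probe was above background on no Sham or TBI array and on 5 of the 9 arrays of drug-treated rats. Ifit3 was kept through the injured groups alone, since its probe was above background on neither Sham array, so some difference from Sham was built into its selection. The dimmer Usp18 probe was above background on 1 of the 2 Sham arrays and was likewise kept through injured groups.

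All arrays held RNA of whole hippocampus from adult male Sprague-Dawley rats, taken 24 h after a severe parasagittal fluid-percussion traumatic brain injury (TBI), in which a pulse of fluid strikes the exposed dura, or after sham injury. The Sham group had 2 rats, prepared but not injured. The TBI group had 3 injured rats without a drug. TBI+Imipramine, TBI+Prozac and TBI+Zoloft had 3 injured rats each, injected 1 h after injury with imipramine (a tricyclic antidepressant), Prozac (fluoxetine) or Zoloft (sertraline), the last 2 being selective serotonin reuptake inhibitors. Per the study's methods the 3 drugs were given intraperitoneally at a common dose. The methods name a vehicle, but the labels do not say which of the Sham and TBI rats received it. Each group was thus 1 dose, 1 survival time and 1 sex, and the Sham group rested on 2 animals.

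Interferons are cytokines, and those of type I are released when cells sense foreign or misplaced nucleic acid. Type I interferons bind a receptor whose kinases, JAK1 and TYK2, phosphorylate STAT proteins, which join IRF9 and switch on genes that carry an interferon-stimulated response element (ISRE) in their promoter. Interferon gamma acts through JAK1 and JAK2 on a different element, the gamma-activated site (GAS). In the brain these genes are expressed by microglia, astrocytes, endothelium and neurons, and by leukocytes that enter after injury. Of the 9 genes, 6 encode antiviral effectors. Isg15 encodes a ubiquitin-like protein that is attached to other proteins, Ifit2 and Ifit3 encode RNA-binding proteins, Rsad2 encodes the radical SAM enzyme viperin, and Mx1 and Mx2 encode dynamin-like GTPases. Irf1 and Irf7 are transcription factors of the pathway, Irf7 being the one that amplifies interferon production. Usp18 is its brake, since the protein strips ISG15 from its targets and blocks the type I receptor.

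RefSeq promoter windows of the rat assembly GRCr8 were given for 5 of the 9 genes, Ifit3, Irf7, Rsad2, Irf1 and Mx1, and each was searched on both strands over the 250 bases before the gene's start. The ISRE core was searched as GAAA, any 2 bases and GAAA again, and the GAS core as TTCNNNGAA, where N is any base. The 2 patterns may overlap in part, and 0.43% of all windows held both. An ISRE core lay in the windows of Ifit3, Irf7 and Rsad2, against 3.41% of all 33469 windows and 31 of 79 windows of the interferon pathway genes listed further on. Irf1 held a GAS core, as did 7.67% of all windows, and no ISRE core. Mx1 held neither pattern in these letters. The windows of the 4 genes with a match are printed 5′ to 3′ on the gene's own strand because Ifit3 and Irf7 rose after injury and Irf1 was above Sham in every injured rat, with the ISRE core (for Irf1 the GAS core) in capitals. Capitals that begin with TTTC are the ISRE core on the opposite strand. A match describes letters and is no evidence that a factor bound there.
The match lies 44 bases before the start in Ifit3 (chr1:241527076-241527325, plus strand), 69 in Irf7 (chr1:205800024-205800273, minus strand), 147 in Rsad2 (chr6:48788121-48788370, minus strand) and 142 in Irf1 (chr10:38417685-38417934, plus strand).
Ifit3: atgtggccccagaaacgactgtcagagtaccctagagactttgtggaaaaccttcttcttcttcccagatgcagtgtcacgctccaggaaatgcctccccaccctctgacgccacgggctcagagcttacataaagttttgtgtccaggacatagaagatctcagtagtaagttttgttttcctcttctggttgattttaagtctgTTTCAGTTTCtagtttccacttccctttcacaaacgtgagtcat
Irf7: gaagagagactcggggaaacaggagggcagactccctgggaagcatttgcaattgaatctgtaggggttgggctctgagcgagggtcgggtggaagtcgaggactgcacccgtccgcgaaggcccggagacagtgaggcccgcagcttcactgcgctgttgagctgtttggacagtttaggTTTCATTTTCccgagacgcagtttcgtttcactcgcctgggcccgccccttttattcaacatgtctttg
Rsad2: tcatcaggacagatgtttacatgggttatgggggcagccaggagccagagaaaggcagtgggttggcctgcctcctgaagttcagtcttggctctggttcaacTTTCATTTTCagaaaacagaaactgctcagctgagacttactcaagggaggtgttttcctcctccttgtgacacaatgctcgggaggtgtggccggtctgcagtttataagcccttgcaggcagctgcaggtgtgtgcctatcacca
Irf1: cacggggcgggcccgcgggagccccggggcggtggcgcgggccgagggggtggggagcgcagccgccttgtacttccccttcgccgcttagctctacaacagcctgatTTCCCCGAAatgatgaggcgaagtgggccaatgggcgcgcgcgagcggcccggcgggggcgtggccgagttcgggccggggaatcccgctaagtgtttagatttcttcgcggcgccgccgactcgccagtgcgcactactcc

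Levels below are a probe's signal in percent of its array's 75th percentile, taken over the probes above background there, and differences are on the log2 scale, where 1 stands for a 2-fold change. Levels of different probes are not compared. Between 14676 and 18196 probes were above background per array. Of 5 hippocampal principal cell markers on the array, Neurod6, Wfs1, Zbtb20 and Neurod2 were above background on all 14 arrays and the granule cell marker Prox1 on none. The arrays lay on 3 slides. Slide 1 carried TBI+Prozac replicate 1 beside the 3 TBI arrays, slide 2 held the other 8 drug arrays, and slide 3 held both Sham arrays and was scanned on another day. Slide, scan day and sham injury thus cannot be told apart. In the comparisons with TBI, imipramine and Zoloft cannot be told apart from slide, and Prozac only through TBI+Prozac replicate 1. In whole tissue, a change in the number of cells that express a gene and a change in RNA per cell cannot be told apart either. Summed signal of 10 microglia and macrophage markers, all above background on all 14 arrays, was 10.8 to 11.7 times the percentile in Sham, 14.3 to 21.9 in TBI, 17.1 to 17.3 in TBI+Imipramine, 13.8 to 18.2 in TBI+Prozac and 17.9 to 19.2 in TBI+Zoloft. The sum of 9 neutrophil and monocyte markers was 0.134 to 0.153 in Sham and 0.587 to 3.16 over the injured arrays, with Elane and Mmp8 above background on none. Of 9 T, B and NK cell markers, 6 were never above background. The sum of 5 endothelium markers was 0.746 to 0.760 in Sham and 1.04 to 1.68 over the injured arrays. Sums of 6 astrocyte markers (39.3 to 40.0 in Sham, 27.7 to 46.0 in injured) and 5 neuron markers (11.6 to 12.3 and 9.27 to 13.3) overlapped. The part of these cells in the results below was not tested.

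The 2 Sham arrays disagreed on these genes. Sham replicate 1 was lower than replicate 2 for 9 of the 10 kept probes, and by over 1 on the log2 scale for 4 of them, against 2.29% of all kept probes, whose median difference between the 2 arrays was -0.0021. Isg15 was 4.04-fold lower in replicate 1, Rsad2 3.11-fold, Usp18 3.05-fold and Irf7 1.98-fold. Mx1 went the other way, with replicate 1 higher by 0.60. Of 51 other interferon pathway genes tested, 42 were lower in Sham replicate 1, 8 of them by over 1. Summed signal of choroid plexus markers also differed, at 0.598 times the percentile in Sham replicate 1 and 29.3 in replicate 2. Over the injured arrays that sum ran from 0.208 to 105.7. The part of choroid plexus tissue in the difference between the Sham arrays was not tested. Every comparison with Sham below uses both arrays, and values without replicate 1 are given where they change a call among the 9 genes or move one of their differences in TBI against Sham by over 1.5 times, and as counts for the pathway. With 1 Sham array left out, the remaining array was assumed to vary like those of the other groups. In each comparison with Sham, calls over all kept probes fell when either Sham array was left out. A call lost in this way is therefore not particular to these genes.

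**Figure D1:**
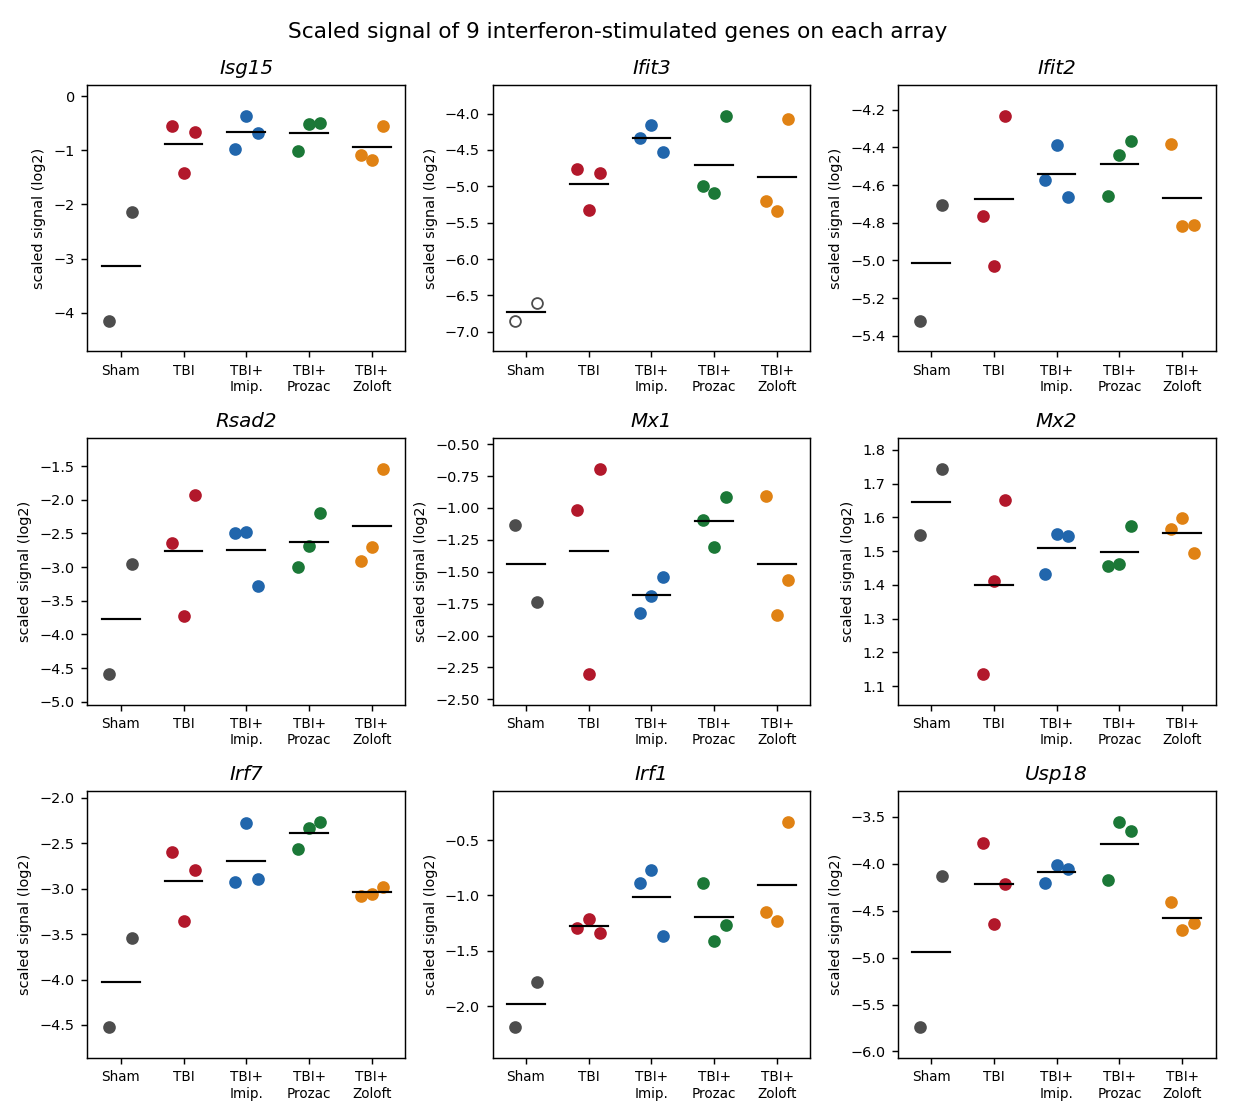
Scaled signal of each of the 9 genes (y axis, log2 of the signal over the array's 75th percentile, own scale per panel) on each of the 14 arrays, by group on the x axis, for the brightest kept probe. Points are arrays, black lines are group means and hollow points were not above background. All 12 injured arrays lie above both Sham arrays for Isg15, Ifit3, Irf7 and Irf1, and the groups overlap for Mx1, Mx2, Ifit2, Rsad2 and Usp18.

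TBI against Sham asks what the injury did. Isg15, Ifit3 and Irf7 rose in the limma test, and the other 6 genes did not pass it. Of the 9 genes, 3 were thus called higher, against 8.3% of all kept probes called higher, and none was called lower. Ifit3 among them was kept through the injured groups. The 9 genes were also chosen with earlier results of these data known, so this count is a description. The calls were lost without Sham replicate 1, which left 1 Sham array, and calls over all kept probes fell too. The median difference over the 9 genes was 0.72, against 0.0015 over all kept probes. Each was tested by limma over all 14 arrays with Benjamini-Hochberg adjustment over the 17322 probes. The calls depended on the test. In the t-test of the study's methods, unadjusted with a 1.2-fold limit, Isg15 and Irf7 did not pass (unadjusted p = 0.0724 and 0.0981). Irf1 did pass it (unadjusted p = 0.0216), as did 17.5% of all kept probes.

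Isg15 read 5.65% and 22.8% of the percentile in the 2 Sham rats, and 68.3%, 37.2% and 63.3% in the 3 TBI rats. Even the lowest TBI array lay above the higher Sham array. The difference was 2.26 ± 0.47 on the log2 scale (SE, 95% interval 1.24 to 3.28), a 4.79-fold rise with a limma adjusted p of 0.00714. Without Sham replicate 1 it was 1.25, with a limma adjusted p of 0.0688, and without Sham replicate 2 it was 3.27. The same direction thus held against either Sham rat, with a size that depended on which one was used.

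Ifit3 read 0.868% and 1.02% in Sham, neither above background, and 3.69%, 2.50% and 3.54% in TBI. No TBI array came near the Sham values. The fitted difference was 1.76 ± 0.38 (SE, 95% interval 0.94 to 2.58), with a limma adjusted p of 0.00848. Because Sham gave only a bound, the TBI mean was put at 2.62-fold or more above Sham in this scaling, taking on each Sham array the lowest signal among probes above background. That bound covers neither the spread between arrays nor other background corrections. Without Sham replicate 1 the difference was 1.64 (limma adjusted p = 0.0692), and with normexp background correction it was 0.42 (limma adjusted p = 0.204).

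Irf7, the amplifier, read 4.35% and 8.61% in Sham and 16.5%, 9.78% and 14.4% in TBI. TBI replicate 2 lay just above the higher Sham array and the other 2 lay well above. The difference was 1.12 ± 0.29 (SE, 95% interval 0.48 to 1.76), 2.17-fold, with a limma adjusted p of 0.0228. The call held in 18 of 25 other settings adjusted over all probes, against 23 of 25 for Isg15 and 21 of 24 for Ifit3. It was lost, among others, without Sham replicate 1 (0.62, limma adjusted p = 0.239), without TBI replicate 1 (0.96, adjusted p = 0.0597), without TBI replicate 3 (1.06, adjusted p = 0.0509) and with normexp (0.61, adjusted p = 0.0798).

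Irf1, the other transcription factor, read 21.9% and 29.1% in Sham and 40.8%, 43.1% and 39.6% in TBI. The 3 TBI arrays lay close together and above both Sham arrays, yet the difference of 0.70 ± 0.27 (SE, 95% interval 0.12 to 1.29) had a limma adjusted p of 0.0987, with an unadjusted p of 0.0229. Groups without overlap, TBI above Sham, occurred for 20.9% of all kept probes, so separation of 3 arrays from 2 was common on these arrays.

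Rsad2 read 4.16% and 12.9% in Sham and 16.0%, 7.55% and 26.3% in TBI. Usp18 read 1.87% and 5.70% in Sham and 7.28%, 4.0% and 5.39% in TBI on its brighter probe. In both genes TBI arrays fell between the 2 Sham arrays, and the differences of 1.0 ± 0.58 for Rsad2 and 0.72 ± 0.38 for Usp18 (SE) had limma adjusted p of 0.271 and 0.219. The Rsad2 difference was 0.183 without Sham replicate 1 and 1.82 without replicate 2. The dimmer Usp18 probe gave 0.67, with a limma adjusted p of 0.243. For Usp18 the choice of Sham rat set the sign, with a difference of -0.08 without replicate 1 and of 1.53 without replicate 2, the latter with a limma adjusted p of 0.0139.

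Ifit2 read 2.50% and 3.83% in Sham and 3.69%, 3.06% and 5.33% in TBI, a difference of 0.34 ± 0.25 (SE) with a limma adjusted p of 0.382. It was 0.0322 without Sham replicate 1 and 0.65 without replicate 2. Mx1 ranged from 30.0% to 45.5% in Sham and from 20.3% to 61.8% in TBI. Its TBI arrays lay on both sides of the Sham arrays, and the difference was 0.10 ± 0.40 (SE, limma adjusted p = 0.896), 0.40 without Sham replicate 1, -0.0049 with a replicate block and between -0.22 and 0.58 when single arrays were left out. Mx2, at 292% and 335% in Sham and 219.8%, 266% and 314% in TBI, had the only negative difference of the 9 genes (-0.25 ± 0.15, SE, limma adjusted p = 0.289). With normexp the Mx2 difference was -0.44, with a limma adjusted p of 0.0436.

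**Figure D2:**
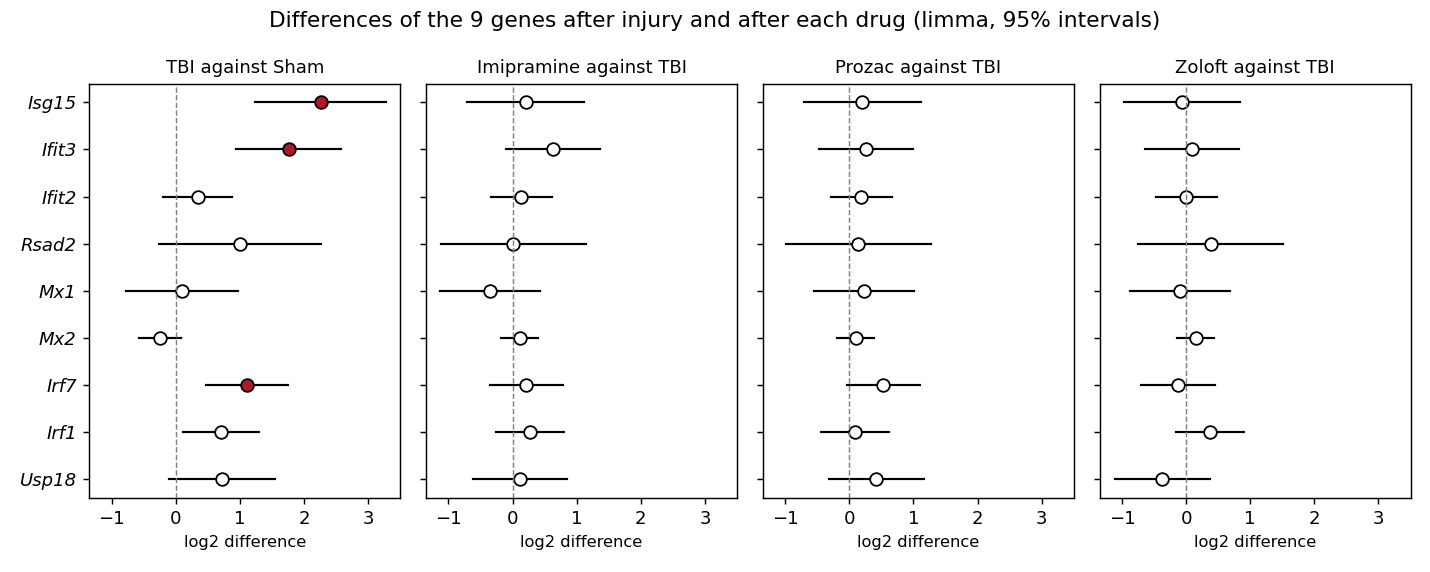
Log2 difference of each of the 9 genes (y axis, brightest kept probe) in 4 comparisons, with limma 95% intervals as bars. Filled red points had a limma adjusted p under 0.05. Isg15 (2.26), Ifit3 (1.76) and Irf7 (1.12) are filled in TBI against Sham, and no gene is filled in the 3 comparisons of a drug with TBI, where every interval crosses 0.

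Comparisons of each drug group with TBI ask whether these genes differed in treated rats after injury. Only TBI+Prozac replicate 1 shared a slide with TBI, so drug and slide are largely not separable here. In the limma test 0 of the 9 genes were called for imipramine, 0 for Prozac and 0 for Zoloft, where 2.85%, 0.00577% and 1.38% of all kept probes were called. At an unadjusted p under 0.05 the count was also 0 for each drug, against 19.7%, 10.1% and 15.2% of all kept probes, and the lowest adjusted p over the 9 genes was 0.321, 0.529 and 0.515. The methods' t-test at its unadjusted threshold called 1 gene, Ifit3 with imipramine, at an unadjusted p of 0.0395, where it called 14.1%, 6.31% and 8.12% of all kept probes for the 3 drugs. The median difference over all kept probes was 0.20 for imipramine, 0.15 for Prozac and 0.01 for Zoloft, so differences of that size in these genes were no larger than the shift of the whole array.

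Isg15 read 50.9%, 77.8% and 62.5% with imipramine, 49.5%, 69.5% and 71.2% with Prozac and 47.2%, 43.9% and 68.2% with Zoloft. All 9 of these arrays lay above both Sham arrays and among or close to the TBI arrays. The differences from TBI were 0.21 for imipramine (95% interval -0.70 to 1.12), 0.20 for Prozac (-0.71 to 1.11) and -0.06 for Zoloft (-0.97 to 0.85). These intervals leave room for changes of nearly 1 on the log2 scale in either direction. With slide as a block among the injured arrays the imipramine and Prozac differences were -0.30 and -0.13. That fit links the drugs to TBI through TBI+Prozac replicate 1 alone, so these values rest on 1 rat. With the 75th percentile taken over all probes the imipramine difference was -0.01. The sign of the imipramine and Prozac differences was therefore not settled.

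Ifit3 read 4.97%, 5.62% and 4.33% with imipramine, 3.12%, 2.94% and 6.13% with Prozac and 2.72%, 2.48% and 5.95% with Zoloft. The 3 imipramine arrays lay above the 3 TBI arrays, as was the case for 25.2% of all kept probes, while the Prozac and Zoloft arrays overlapped with TBI. The imipramine difference was 0.63 (95% interval -0.11 to 1.36), against 0.26 for Prozac (-0.47 to 1.0) and 0.10 for Zoloft (-0.64 to 0.83). In each of the last 2 groups 1 rat, replicate 3, carried the higher mean, and without it the differences were -0.08 for Prozac and -0.30 for Zoloft. The imipramine difference stayed positive in all 25 alternative settings, from 0.18 to 0.73, and was called in none of those adjusted over all probes.

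Irf7 read 13.1%, 20.6% and 13.5% with imipramine, 17.0%, 19.9% and 20.8% with Prozac and 11.8%, 12.01% and 12.7% with Zoloft. The Prozac arrays lay above all 3 TBI arrays, as did 14.8% of kept probes, and the Zoloft arrays lay within the TBI range. The differences were 0.22 for imipramine (95% interval -0.36 to 0.79), 0.53 for Prozac (-0.04 to 1.1) and -0.12 for Zoloft (-0.70 to 0.45). On slide 1 alone, where 1 Prozac array shared a slide with the TBI arrays, the difference was 0.35.

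For Irf1, Rsad2, Usp18, Ifit2, Mx1 and Mx2 the differences from TBI ran from -0.35 to 0.27 with imipramine, from 0.09 to 0.42 with Prozac and from -0.37 to 0.38 with Zoloft. Over 486 values of these 6 genes under other settings, 51 had the opposite sign to the value given here and 0 were called. Without TBI replicate 2, Mx1 with Prozac was at -0.25, Usp18 with imipramine at -0.0963 and Rsad2 with imipramine at -0.47. Zoloft replicate 3 stood out in some of them, with Irf1 at 79.2% (44.96% and 42.5% in the other 2 rats) and Rsad2 at 34.3% (13.4% and 15.3%). Mx2 stayed between 269.6% and 303% on the 9 drug arrays.

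Differences among imipramine, Prozac and Zoloft were examined by limma's F test. In it 0 of the 9 genes had an adjusted p under 0.05, against 3.18% of all kept probes, 0 had an unadjusted p under 0.05, against 22.5%, and the lowest adjusted p was 0.288, for Irf7. As a description, Irf7 was higher with Prozac than with Zoloft by 0.65 (95% interval 0.08 to 1.23), and by 0.74 among the arrays of slide 2. Usp18 read 5.54%, 8.5% and 7.98% with Prozac and 4.72%, 3.84% and 4.02% with Zoloft, so that all Prozac arrays lay above all Zoloft arrays, as was seen for 21.1% of kept probes. That difference was 0.79 (95% interval 0.05 to 1.53) on the brighter probe and 0.94 (0.22 to 1.66) on the dimmer one, whose F test gave an unadjusted p of 0.0339 and a limma adjusted p of 0.186. Isg15 differed by 0.27 between Prozac and Zoloft (95% interval -0.65 to 1.18) and by 0.0042 between imipramine and Prozac (-0.91 to 0.92), intervals wide enough to hold sizeable differences between drugs.

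Comparisons of the drug groups with Sham ask whether these genes were still raised in treated rats. They share the 2 Sham arrays with each other and with the TBI comparison, so they are not independent. With imipramine 4 of the 9 genes were called higher, against 19.8% of all kept probes, with Prozac 3 against 11.7%, and with Zoloft 3 against 4.16%. None was called lower, against 3.6%, 3.16% and 1.8%. Ifit3, kept through the injured groups, is in each of the counts of genes called higher. Isg15 was higher by 2.47 ± 0.47 with imipramine, 2.46 ± 0.47 with Prozac and 2.20 ± 0.47 with Zoloft (SE, limma adjusted p = 0.00330, 0.00625 and 0.0182). In the methods' t-test Isg15 passed with none of these drugs (unadjusted p = 0.0514, 0.0512 and 0.0693). Ifit3 was at least 4.05-fold, 3.14-fold and 2.81-fold higher in this scaling (limma adjusted p = 0.00123, 0.00571 and 0.0151). With normexp its differences were only 0.48 with Prozac and 0.58 with Zoloft (limma adjusted p = 0.169 and 0.155). Its imipramine call held in 24 of 24 other settings adjusted over all probes, with a lowest difference of 0.72. The difference of all kept probes moved too, with medians of 0.18, 0.14 and 0.0025.

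Irf7 was higher than in Sham by 1.33 ± 0.29 with imipramine and 1.65 ± 0.29 with Prozac (SE, limma adjusted p = 0.00738 and 0.00465), while its difference of 0.99 ± 0.29 with Zoloft had an adjusted p of 0.0688. Irf1 passed the test with imipramine (0.97 ± 0.27, limma adjusted p = 0.0221) and Zoloft (1.08 ± 0.27, 0.0383) but not with Prozac (0.79 ± 0.27, 0.0688). The Irf1 call held in 17 of 25 other settings with imipramine and in 14 of 25 with Zoloft. Quantile normalization ended the imipramine call (0.73, limma adjusted p = 0.0501) and normexp the Zoloft call (0.87, limma adjusted p = 0.0718), and without Sham replicate 1 both were lost (0.77 and 0.87, limma adjusted p = 0.167 and 0.226). Such a pattern of calls does not show that the drugs differed. Mx2, uncalled here, was lower with imipramine when the percentile was taken over all probes (-0.38, limma adjusted p = 0.0268). Usp18 was called on its dimmer probe with imipramine (1.17, limma adjusted p = 0.0391) and Prozac (1.34, 0.0310), whereas its brighter probe was not (0.84, 0.129 and 1.14, 0.0624). That probe gave 0.43 and 0.60 without Sham replicate 1 (limma adjusted p = 0.430 and 0.306). Without Sham replicate 1, which left 1 Sham array, the calls with Prozac and Zoloft were lost, as were some with imipramine. Calls over all kept probes fell too in these comparisons. The Isg15 differences were then 1.46 with imipramine, 1.46 with Prozac and 1.19 with Zoloft. Irf7 then differed by 0.84 with imipramine and 1.15 with Prozac (limma adjusted p = 0.0964 and 0.0570), and by 0.50 with Zoloft, and Ifit3 by 1.90 with Prozac and 1.74 with Zoloft (limma adjusted p = 0.0540 and 0.111).

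Over all injured rats, Isg15, Ifit3, Irf7 and Irf1 were each higher on 12 of 12 injured arrays than on both Sham arrays, as were 12.1% of all kept probes. For Ifit3, kept through the injured groups, some of this was built into its selection. Rsad2 was above both on 9 of the 12, Ifit2 on 8, Usp18 on 5 (8 on the dimmer probe), Mx1 on 5 and Mx2 on 0. The order of the groups by mean level was Sham, Zoloft, TBI, Prozac, imipramine for Isg15 and Sham, Zoloft, TBI, imipramine, Prozac for Irf7. Neighbours in these orders above Sham overlapped from array to array.

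**Figure D3:**
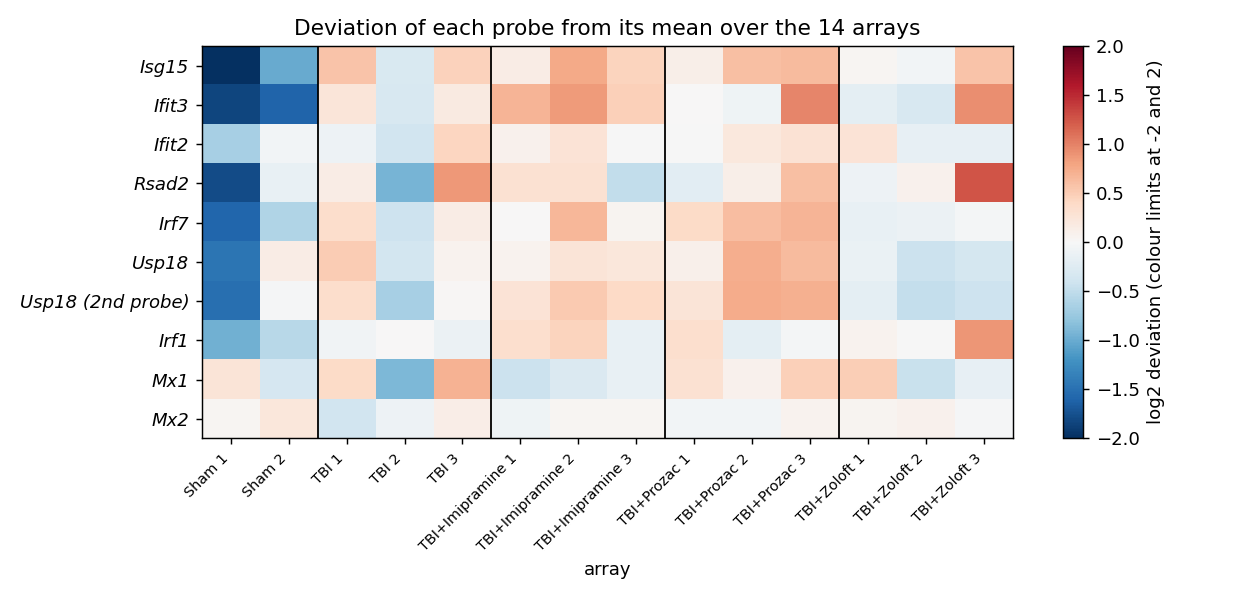
Deviation of each kept probe (y axis) from its mean over the 14 arrays (x axis), on the log2 scale, with colour limits at -2 and 2 and black lines between groups. Sham replicate 1 is the bluest column for most probes, TBI replicate 2 is bluer than the other TBI arrays in 8 of 10 probes, and the Mx1 and Mx2 rows do not follow the rest.

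In most of the genes the same 1 of the 3 TBI rats was lowest, while the order of the other rats differed between genes. TBI replicate 2 was the lowest TBI array for 8 of the 10 probes, as it was for 8.46% of all kept probes and for 13 of the 51 other pathway genes, while it was the highest for Irf1 and in the middle for Mx2. Its Isg15 level lay 0.82 below the mean of the other TBI rats, Rsad2 1.44 below and Mx1 1.45 below. The same rat had the highest sums of microglia and macrophage markers (21.9, against 14.3 and 15.8) and of neutrophil and monocyte markers (2.81, against 1.16 and 0.587) of the 3, and the lowest sum of T, B and NK cell markers (0.0670, against 0.112 and 0.0883). The part of these cells in its low values was not tested.

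A mean of the 10 probes, each as a z score over the 14 arrays, ran from -1.90 in Sham replicate 1 to 0.84 in TBI+Prozac replicate 3, and TBI replicate 2 (-0.83) fell below Sham replicate 2 (-0.44). Across the 14 arrays, which share groups and slides, Pearson's r of a probe with this mean was 0.93 for Irf7, 0.92 for Isg15, 0.90 for Ifit2, 0.85 for Rsad2, 0.82 for Ifit3 and 0.63 for Irf1. It was 0.83 and 0.86 for the Usp18 probes, 0.30 for Mx1 and -0.01 for Mx2. These values count each probe within its own mean, and are given as a description. After each group's mean was taken out, r was 0.89 for Isg15 and Rsad2, 0.87 for Ifit2 and Irf7, 0.78 and 0.85 for the Usp18 probes, 0.59 for Ifit3, 0.43 for Mx2, 0.41 for Mx1 and 0.30 for Irf1. Of 11863 other probes with a symbol, those most like the mean were Irgm (r = 0.92), Gbp5 (0.90), Rasal3 (0.90), Apol9a (0.89) and Ablim3 (0.88). On the same footing their r was 0.86, 0.81, 0.79, 0.87 and 0.80.

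Other genes of the pathway were read from lists of 91 genes, of which 75 were on the array and 51 kept. In TBI against Sham 18 of the 51 were called higher and 1 lower, against 8.3% and 8.32% of all kept probes. Their median difference was 0.68, and 43 of 51 were positive. With each array left out in turn the total of 19 ranged from 8, without Sham replicate 1, to 24, without TBI+Zoloft replicate 3. The 8 called without Sham replicate 1 were Ifitm1, Ifitm3, Bst2, Ifi27l2b, Gbp2, Parp14 and Ptpn6, all higher, and Igtp, lower. Over all kept probes, calls fell too without Sham replicate 1. Kept through injured groups, with 1 or neither of the Sham arrays above background, were 5 of the 51, Socs3, Slfn4, Oas1a, Ifi47 and Cxcl10, and of these Ifi47 was among the 18. Of 6 interferon genes on the array, Ifnb1, Ifng, Ifna2, Ifna5 and Ifnk were above background in no rat and Ifna4 in 1, so the ligands themselves were not measured.

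**Figure D4:**
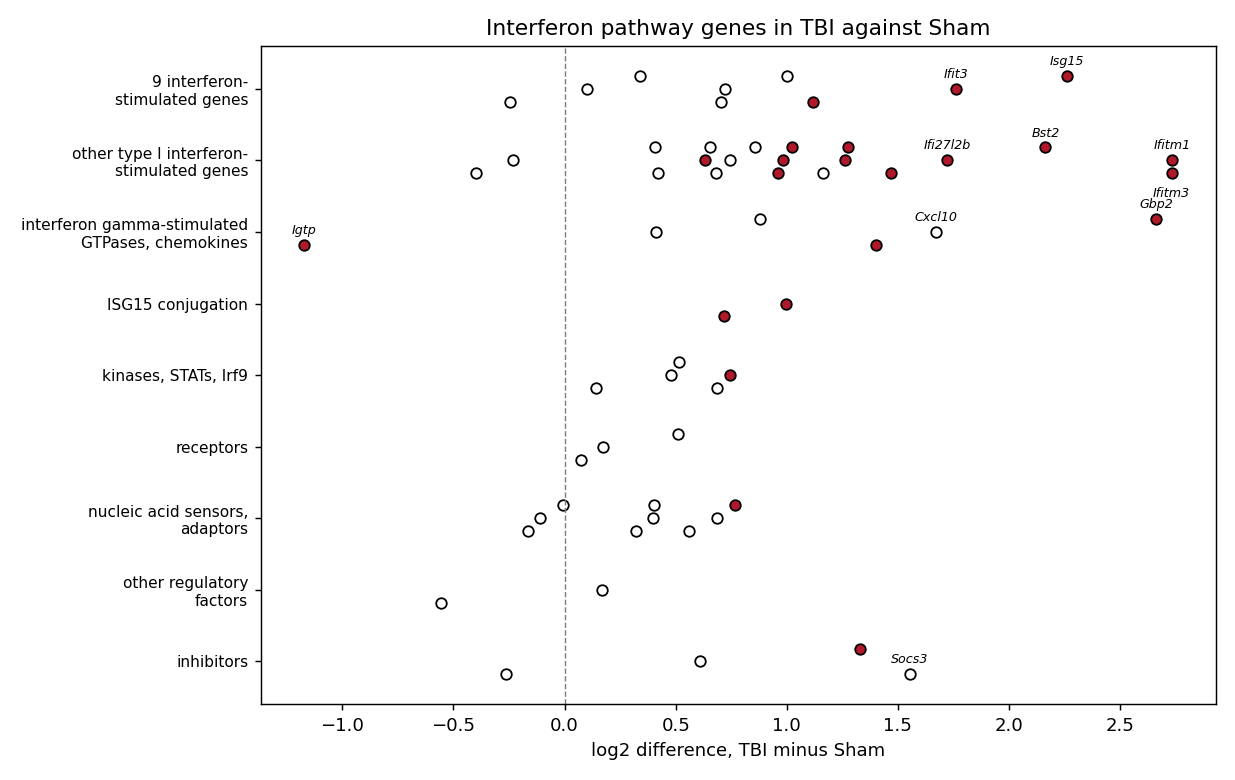
Log2 difference of TBI minus Sham (x axis) for the 9 genes and for other kept interferon pathway genes by role (y axis), each gene at its brightest kept probe. Filled red points had a limma adjusted p under 0.05, and genes beyond 1.5 or below -1 are named. Most points lie right of 0, with Ifitm1, Ifitm3 and Gbp2 farthest right, and Igtp, whose other probe differed by 1.11, alone at the left.

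Among the effectors, 11 of 20 other type I interferon-stimulated genes rose. Ifitm1 rose by 2.73 ± 0.35 and Ifitm3 by 2.73 ± 0.41 (SE, limma adjusted p = 0.000529 and 0.00130), and both encode membrane proteins that hinder virus entry and belong to a family of near-identical genes whose probes may share signal. Bst2, which encodes the virus tether tetherin, rose by 2.16 ± 0.35, Ifi27l2b by 1.72 ± 0.23 and Ifitm2 by 1.47 ± 0.36. Both kept enzymes that join ISG15 to proteins rose, the conjugating enzyme Ube2l6 by 0.996 ± 0.22 (limma adjusted p = 0.0107) and the ligase Trim25 by 0.72 ± 0.18 (limma adjusted p = 0.0172). These went in the same direction as Isg15 itself.

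Upstream of them, of 5 kinases, STATs and Irf9, only Jak2 was called (0.74 ± 0.22, limma adjusted p = 0.0375), while Stat2 differed by 0.48 and Irf9 by 0.69 (limma adjusted p = 0.120 and 0.0503). None of 3 receptor genes passed, Ifnar1 differing by 0.51, Ifngr1 by 0.17 and Ifngr2 by 0.08. Of 9 sensors and adaptors only Myd88, the adaptor of Toll-like receptors, rose (0.77 ± 0.23, limma adjusted p = 0.0397), with Dhx58 at 0.69 (adjusted p = 0.0516) and Tlr7 at 0.56. Of 4 inhibitors the phosphatase gene Ptpn6, which microglia and leukocytes express strongly, rose by 1.33 ± 0.24 (limma adjusted p = 0.00330). Neither of the other 2 kept interferon regulatory factor genes passed the test.

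Genes driven chiefly by interferon gamma gave 2 rises of 6, the guanylate-binding GTPase Gbp2 (2.66 ± 0.37, limma adjusted p = 0.000810) and the immunity-related GTPase Ifi47 (1.40 ± 0.30, limma adjusted p = 0.00884), which was above background on 1 of the 2 Sham arrays and differed by 0.99 without Sham replicate 1 (limma adjusted p = 0.108). Igtp, of the same GTPase family, was called lower on its brighter probe (-1.17 ± 0.18, limma adjusted p = 0.00131) and higher on its dimmer probe (1.11, limma adjusted p = 0.0496). The direction of Igtp is therefore not settled. Tlr3, Eif2ak2 and Ifi27l2b, which also had over 1 kept probe, had the same sign on both probes in this comparison.

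Few pathway genes passed the test against TBI. Called genes numbered 0 of 51 with imipramine, 0 with Prozac and 1 with Zoloft, against 2.85%, 0.00577% and 1.38% of all kept probes. The 1 called with Zoloft was Igtp on its brighter probe (0.79 ± 0.16, limma adjusted p = 0.0356), with 0.25 on the dimmer one (limma adjusted p = 0.776). At the unadjusted threshold of the methods' t-test the counts were 7, 4 and 4, or close to the shares of all kept probes given above. Slfn4 differed by 1.71 and Ifi47 by 1.0 with imipramine and Cxcl10 by 1.48 with Zoloft (limma adjusted p = 0.129, 0.0702 and 0.417). Of the 51, 48 were positive with imipramine, 40 with Prozac and 24 with Zoloft. The median differences from TBI were 0.33, 0.14 and -0.0062, against 0.20, 0.15 and 0.01 over all kept probes. Against Sham, 31, 25 and 18 genes were called higher, against 19.8%, 11.7% and 4.16% of all kept probes. Of these, 4 (Ifi47, Oas1a, Socs3 and Slfn4), 2 (Ifi47 and Oas1a) and 1 (Ifi47) were kept through injured groups. In each comparison 1 gene was called lower, against 3.6%, 3.16% and 1.8%. With imipramine and Prozac it was Igtp, whose dimmer probe was called higher (1.43 and 1.22, limma adjusted p = 0.01265 and 0.03795). With Zoloft it was Pias1 (-0.67, limma adjusted p = 0.0350). Without Sham replicate 1, which left 1 Sham array, the totals of both directions fell with each drug, as they did over all kept probes.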

How the data were processed

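The authors hybridised hippocampal RNA of 14 rats to 1-colour Agilent gene expression arrays, and the deposited scanner files hold spot intensity on a linear scale, made with Agilent Feature Extraction per the submitters' processing notes. The deposited flags, values of 0 or 1 of another kind, mark spots above background, outlier spots and saturation. Control spots and outlier-flagged spots (0.443% to 1.04% per array) were left out, 0 spots were saturated, and the processed signals of a probe were averaged. Signals were scaled to the array's 75th percentile over probes above background (over 0.5 of a probe's spots flagged as such) and log2 values were taken. Kept were the 17322 of 30367 probes that some group had above background on all of its arrays. Of these 11902 had a symbol in the RefSeq table, out of 18643 in all, and the others were not named.

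Groups and replicate numbers came from the sample titles. A single limma model (version 3.58.1, lmFit and eBayes, R 4.3.3) of the 5 groups gave the differences and two-sided p-values, which were adjusted by Benjamini-Hochberg over all kept probes and called under 0.05, with 95% intervals. A gene stood for its brightest kept probe. The p-values measure the spread between these samples only, and the number of arrays limits the precision. Named from the pathway lists were genes called in a comparison, up to 5 per list and direction, and uncalled upstream genes, 1 of which is not reported here. The 9 genes and all lists were chosen with earlier results of these data known. Alternatives were normexp with an offset of 50 (on median spot signal, since mean signal is not a column of these files), quantile normalization, the percentile over all probes, the authors' deposited series table of linear intensity values, filters, spot flags, blocks, a fit of 2 groups, each array left out, and the methods' t-test with its 1.2-fold limit. The fit was tested on simulated data. Figures were drawn with matplotlib 3.10.9 in Python 3.11.15. The miRNA arrays of the same series were not used here.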

Additional observations from a re-analysis of the deposited data

How the results depend on the processing

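Called counts moved mainly with the choice of test and of Sham array. With the methods' t-test after Benjamini-Hochberg, genes called among the 9 numbered 0 in TBI against Sham, 1 with imipramine, 0 with Prozac and 0 with Zoloft against Sham, and pathway genes 0, 3, 0 and 0, with 0 for Zoloft against TBI. Over all kept probes this setting called 0%, 6.3%, 0.00577% and 0% in the same order, and 0% for Zoloft against TBI. The counts of 0 thus came where next to no probe on the array was called. At the unadjusted threshold of the methods' t-test the 9 genes gave 2 calls with imipramine and 1 with Zoloft against Sham and 1 (Ifit3) with imipramine against TBI, and the pathway gave 7, 4 and 4 calls for imipramine, Prozac and Zoloft against TBI. That threshold called 32.9% and 13.2% of all kept probes with imipramine and Zoloft against Sham. Against TBI it called 14.1%, 6.31% and 8.12% with imipramine, Prozac and Zoloft. In a fit of only the 2 groups compared, Zoloft against Sham gave 0 of the 9 genes and 1 pathway gene, where 1.15% of all kept probes were called. Zoloft against TBI then gave 0 pathway genes, where 0.11% of all kept probes were called. Normexp gave 1 of the 9 genes and 12 pathway genes for Zoloft against Sham (3.94% of all kept probes) and 2 pathway genes for imipramine against TBI (2.1%). No filter on dim probes gave 12 pathway genes for Zoloft against Sham (1.71% of all probes tested) and 0 for Zoloft against TBI (0.0725%). For imipramine against TBI, probes above background on all 14 arrays gave 1 pathway gene (2.88% of those probes). Slide as a random block gave 4 there (5.76% of all kept probes, consensus correlation -0.058). For Zoloft against TBI slide as a fixed block gave 0 (0.0115%). The cause of these moves was not tested.

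Leaving out 1 array at a time, calls among the 9 genes ranged from 0 to 4 in TBI, 2 to 5 in imipramine, 0 to 4 in Prozac and 0 to 3 in Zoloft against Sham, each lowest without Sham replicate 1. Pathway calls ranged from 8 to 24, 18 to 35, 8 to 28 and 4 to 19 in the same order, and against TBI from 0 to 2 with imipramine and from 0 to 1 with Zoloft. Calls over all kept probes against Sham also fell when either Sham array was left out. Uncalled differences that changed sign were, against Sham, Mx1 (-0.22 to 0.58 in TBI, -0.55 to 0.0529 with imipramine, -0.30 to 0.30 with Zoloft), Mx2 (-0.19 to 0.006 with Zoloft) and Usp18 (-0.0802 to 1.53 in TBI, -0.45 to 1.16 with Zoloft). Against TBI, among the 3 genes called after injury, they were Isg15 (-0.0667 to 0.37 with imipramine, -0.0709 to 0.37 with Prozac, -0.34 to 0.10 with Zoloft), Irf7 (-0.0045 to 0.37 with imipramine, -0.34 to 0.035 with Zoloft) and Ifit3 (-0.0777 to 0.45 with Prozac, -0.30 to 0.33 with Zoloft).

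Scaling changed the sign of small imipramine differences from TBI. Isg15 was at -0.0144 and Irf7 at -0.0056 with the percentile over all probes, -0.0157 and -0.0069 with the authors' table, and Irf7 at -0.0231 with quantile normalization. With slide as a fixed block Isg15 was at -0.30 and Irf7 at -0.0481 with imipramine, Ifit3 at -0.035 and Isg15 at -0.13 with Prozac, and Ifit3 at -0.35 with Zoloft. All of these rest on TBI+Prozac replicate 1, the only drug array on the slide of the TBI arrays. Normexp put Mx1 at 0.0323 for Zoloft against Sham. Replicate numbers did not pair the rats, since deviations of same-numbered arrays correlated at -0.23 to 0.23, over 0.1 in 2 of 26 pairs, and 3 arrays correlated best with one of their own number. As a replicate block they put Mx1 at -0.0049 in TBI against Sham and gave 1 pathway gene for imipramine against TBI, where 2.22% of all kept probes were called. Signal limits the values of Ifit3 in Sham, not above background there.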
